A study of Mus musculus with 144 samples.

Results

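Mesangial cells are the contractile pericytes that sit between the capillary loops of the kidney glomerulus, the filtering unit of the kidney. Here they were compared between BTBR ob/ob mice and BTBR WT mice at 18 weeks of age. The comparison used every library that the sample titles give as mesangial at that age, which made 14 of the 144 samples of the series. Of these, 7 came from ob/ob mice (4 females and 3 males) and 7 from WT mice (3 females and 4 males). ob/ob mice lack functional leptin, the satiety hormone of fat tissue, become obese and diabetic, and are used as a model of diabetic nephropathy. Both genotypes carried the Gt(ROSA)26Sor tm4 reporter, which makes red tdTomato until Cre switches a cell to green EGFP. Both also carried a transgene in which a podocyte promoter drives Cre, so that only podocytes become green. Glomeruli were isolated with magnetic beads, digested with collagenase, pronase and dispase, and sorted for live cells with CD73 on their surface and without PODXL, EGFP or the leukocyte antigen CD45. The mesangial libraries of younger mice, 16 at 6 weeks and 16 at 12 weeks, entered the same model and served to test whether the difference between genotypes changed with age.

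Mesangial cells make the matrix that carries the capillary tuft and contract and relax under angiotensin, endothelin, natriuretic peptides and nitric oxide. They depend on platelet-derived growth factor from the endothelium, which they sense through the receptor encoded by Pdgfrb. In diabetic kidneys the mesangium is known for hypertrophy, accumulation of matrix and a more smooth muscle-like state.

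The 14 libraries held 15.8 to 22.0 M counts in ob/ob cells and 15.9 to 18.8 M counts in WT cells (M, mega), with 17903 to 20805 and 19220 to 20417 genes detected. Levels are given as CPM, counts scaled by TMM to a common library total, as the lowest, the highest and the median of the 7 libraries of a genotype, or as mean ± SD (n = 7 each). Changes are log2 fold changes (log2FC) of ob/ob over WT cells ± SE. The sort was visible in the RNA. Nt5e, which encodes CD73, had 495 to 718 CPM (median 570.3) in ob/ob, against 647 to 806 CPM (median 755) in WT cells. Podxl, which encodes the sialoprotein used for exclusion, had 17.1 to 37.1 CPM (median 25.3) in ob/ob, against 38.0 to 102 CPM (median 55.2) in WT cells. Podocyte libraries of the same age had medians of 19277 CPM in ob/ob and 18885 CPM in WT mice. Glomerular endothelial libraries, which were sorted as positive for PODXL, had medians of 3430 CPM in ob/ob and 3498 CPM in WT mice. Summed over the 9 mesangial marker genes the level was 18505 to 21716 CPM in ob/ob cells and 19000.5 to 20961 CPM in WT cells. Single markers moved within this sum: 5 of the 9 fell and 2 rose, among them Serpine2, with medians of 4381 CPM in ob/ob and 2412 CPM in WT cells. Lep itself could not check the genotype, since 0 of the 14 libraries held a Lep count. On the first principal component, which took 25.3% of the variance, the ob/ob libraries lay between -7.98 and 89.83 and the WT libraries between -65.59 and -15.18, with ob/ob female 3 nearest to WT and ob/ob female 4 farthest from it.

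Markers of neighbouring cell types are given here because several moved with the genotype or with 1 library. Among 10 podocyte markers, 6 fell and 2 rose in ob/ob cells. Nphs1, which encodes the slit diaphragm protein nephrin, had 1.05 to 5.50 CPM (median 3.62) in ob/ob, against 6.04 to 15.1 CPM (median 11.1) in WT cells. No ob/ob library reached a WT library. Relative to podocyte libraries of the same genotype and age, the median Nphs1 level was 0.114% in ob/ob and 0.376% in WT mesangial cells. Synpo, an actin-associated protein and one of the markers that rose (429 ± 28.8 CPM in ob/ob and 317 ± 29.6 CPM in WT cells), stood at 6.22% of the podocyte level in WT cells. The sum over all 10 markers was 505 to 605 CPM in ob/ob cells and 429.9 to 579 CPM in WT cells. Synpo made up most of it, with medians of 431 CPM in ob/ob and 303 CPM in WT cells, against median sums of 560 and 492 CPM. Over 8 markers of glomerular endothelium the sum was 878 to 1214 CPM in ob/ob cells and 734 to 826 CPM in WT cells, without overlap. Most of this sum was Ehd3, with medians of 670 CPM in ob/ob and 589 CPM in WT cells, against median sums of 972 and 787 CPM. Of these markers Emcn, Ehd3 and Flt1 rose, with log2FC values of 0.89 ± 0.10, 0.30 ± 0.11 and 0.36 ± 0.13. Pecam1, Cdh5, Tie1 and Egfl7 were not called and overlapped between genotypes. Pecam1 had medians of 8.39 CPM in ob/ob and 7.25 CPM in WT cells, and Cdh5 had 10.98 and 8.93 CPM. Ehd3 was still called in 7 of 14 fits that each left out 1 library, with an adjusted p of up to 0.155. Flt1 was still called in 9 of 14 fits that each left out 1 library, with an adjusted p of up to 0.0815. On the TPM scale 1 of the 8 rose. Kdr, the main receptor for vascular endothelial growth factor, had 18.8 to 70.4 CPM (median 29.9) in ob/ob, against 8.27 to 84.5 CPM (median 18.6) in WT cells and did not pass the test (adjusted p = 0.781). ob/ob male 1 had by far the highest level of proximal tubule markers, with 3.34 CPM of Slc5a12, a lactate transporter of the proximal tubule. It was also highest for Ren1, the renin gene, with 131 CPM. Ren1 rose in ob/ob cells both with and without that library, with medians of 18.1 CPM in ob/ob and 6.07 CPM in WT cells. Akr1b7, the other renin cell marker, was not called, with medians of 4.54 CPM in ob/ob and 7.47 CPM in WT cells. Over 10 proximal tubule markers the sum was 2.14 to 68.8 CPM in ob/ob cells and 1.55 to 12.2 CPM in WT cells. The 2 markers that rose with all libraries were no longer called without ob/ob male 1, and Slc5a12 was also lost without WT female 2. Over 7 markers of the distal nephron the sum reached 19.3 CPM in ob/ob male 1 and 21.4 CPM in WT male 1, the highest library of each genotype. Markers of neutrophils, lymphocytes and fat cells were at or near 0 in all libraries, with sums of at most 0.572 CPM in ob/ob cells and 0.411 CPM in WT cells. The part of podocyte, endothelial, tubule or renin cell RNA in the results that follow was not tested, and in bulk RNA fewer cells of a type and less RNA per cell cannot be told apart.

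**Figure D1:**
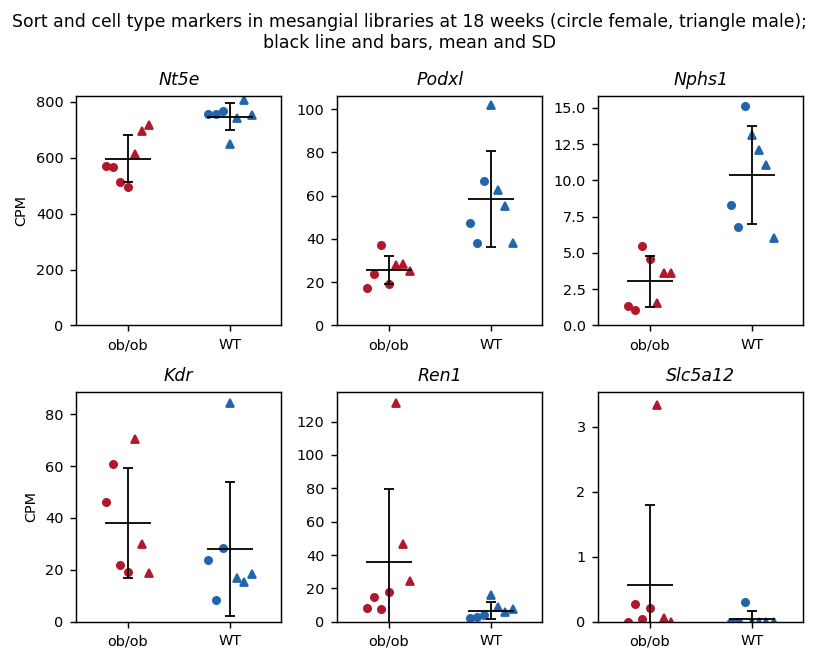
CPM of the sort marker Nt5e and of markers of podocytes and endothelium (Podxl), podocytes (Nphs1), endothelium (Kdr), renin cells (Ren1) and proximal tubule (Slc5a12) in each mesangial library at 18 weeks, ob/ob left and WT right, circles for females and triangles for males, black line and bars for mean and SD (n = 7 each). Podxl and Nphs1 did not overlap between genotypes, and ob/ob male 1 stood apart for Ren1 (131 CPM) and Slc5a12 (3.34 CPM).

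Of 17953 genes tested with edgeR's quasi-likelihood test, 3471 were called changed between ob/ob and WT cells at an adjusted p under 0.05, which is 19.3% of those tested. They comprised 1990 genes that rose (11.1%) and 1481 that fell (8.25%) in ob/ob cells, and 57.3% of the calls were higher. The counts of called list members given below are to be read against these shares. The changes were mostly small, with a median absolute log2FC of 0.46 among called genes, and 738 genes (4.11%) changed at least 2-fold. On the deposited TPM scale 3138 genes were called, 1114 higher (6.21% of those tested) and 2024 lower (11.3%), so that 35.5% were higher. The 2370 genes called on both scales all kept their direction, and the median log2FC over all genes was -0.0167 in counts and -0.0914 in TPM. In 885 genes (4.93%) every ob/ob library lay above every WT library, and in 583 (3.25%) every ob/ob library lay below. Without ob/ob male 1, 3159 genes were called (10.1% higher and 7.46% lower of those tested), 3012 of them also called with all libraries and in the same direction, and 689 changed at least 2-fold.

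Among the 12 genes that rose most, Galnt3, an enzyme that starts mucin-type O-glycosylation (ENSMUSG00000026994, GRCm38 chromosome 2, 66082766 to 66124994), had 5.82 to 30.5 CPM (median 15.4) in ob/ob, against 0.107 to 0.620 CPM (median 0.212) in WT cells (log2FC 5.98 ± 0.45, adjusted p = 5.01e-14). Pcdh7, a protocadherin of cell adhesion (ENSMUSG00000029108, GRCm38 chromosome 5, 57717967 to 58133230), had 58.8 to 133 CPM (median 77.3) in ob/ob, against 3.02 to 12.0 CPM (median 5.34) in WT cells (log2FC 3.80 ± 0.28, adjusted p = 3.31e-14). In both genes the lowest ob/ob library was several times above the highest WT library. Gpr176, a receptor coupled to G proteins, and Gabra3, a subunit of the GABA-A receptor, rose with log2FC values of 5.94 ± 0.48 and 5.07 ± 0.53, against WT medians of 0.293 and 0.265 CPM. Spon2 and Ogn, which encode the secreted matrix proteins spondin 2 and osteoglycin, rose by 4.09 ± 0.57 and 4.06 ± 0.35 on the log2 scale. Igfbp3, a binding protein of insulin-like growth factors, had 2.44 to 18.8 CPM (median 4.29) in ob/ob, against 0.261 to 0.902 CPM (median 0.362) in WT cells (log2FC 3.97 ± 0.51, adjusted p = 6.13e-08). Angpt4, an angiopoietin, had 24.4 to 45.2 CPM (median 35.9) in ob/ob, against 0.833 to 4.02 CPM (median 2.41) in WT cells (log2FC 3.84 ± 0.29, adjusted p = 4.29e-14). Dpep1, a membrane dipeptidase, and Ptprq, of the receptor phosphatase family, rose on the log2 scale by 3.84 ± 0.36 and 3.81 ± 0.35. The remaining members of the 12 that rose most were 4932441J04Rik, a transcript without a coding sequence (3.82 ± 0.48), and Prss23os (3.88 ± 0.78), which lies antisense to another gene. Whether the counting used strand was not stated, so reads of Prss23os and of its partner may not have been separated.

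Among the genes that fell most, Ephb1 was at the top. It encodes a receptor tyrosine kinase for ephrin-B ligands (ENSMUSG00000032537, GRCm38 chromosome 9, 101922128 to 102354693) and had 0.538 to 5.88 CPM (median 3.23) in ob/ob, against 55.0 to 75.2 CPM (median 63.3) in WT cells (log2FC -4.40 ± 0.30, adjusted p = 2.02e-15). Postn, which encodes the matricellular protein periostin (ENSMUSG00000027750, GRCm38 chromosome 3, 54361109 to 54391037), had 0.969 to 4.29 CPM (median 2.84) in ob/ob, against 23.4 to 42.8 CPM (median 32.3) in WT cells (log2FC -3.52 ± 0.21, adjusted p = 8.19e-17). No ob/ob library reached a WT library in either gene, and ob/ob female 4 was the lowest of all 14 for both. Gfpt2, the entry enzyme of the hexosamine pathway, fell by 3.20 ± 0.21 on the log2 scale, with 1.45 to 2.90 CPM (median 2.27) in ob/ob, against 13.1 to 22.5 CPM (median 21.5) in WT cells. Vdr, the vitamin D receptor, had 3.95 to 10.0 CPM (median 7.08) in ob/ob, against 25.6 to 52.8 CPM (median 35.2) in WT cells (log2FC -2.57 ± 0.27, adjusted p = 3.30e-10). Kcnj8, the pore of a potassium channel that closes with ATP, had 2.15 to 7.89 CPM (median 3.38) in ob/ob, against 18.2 to 28.3 CPM (median 26.0) in WT cells (log2FC -2.51 ± 0.29, adjusted p = 6.06e-09). Adam28, a membrane metalloproteinase, Grm7, a glutamate receptor, Ky, a muscle peptidase, and Stc1, the hormone stanniocalcin 1, had log2FC values of -3.39 ± 0.31, -3.25 ± 0.36, -3.22 ± 0.47 and -2.32 ± 0.35. Tmem132e (-2.98 ± 0.33) and Clmn (-3.17 ± 0.32), which encode transmembrane proteins, completed the list together with Ptpro, a receptor phosphatase of podocytes (-2.42 ± 0.47). The WT mesangial level of Ptpro was 0.314% of the podocyte level, close to that of Nphs1 (0.376%), whereas Ephb1 and Clmn stood at 26.9% and 26.7% of the podocyte level in WT cells.

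**Figure D2:**
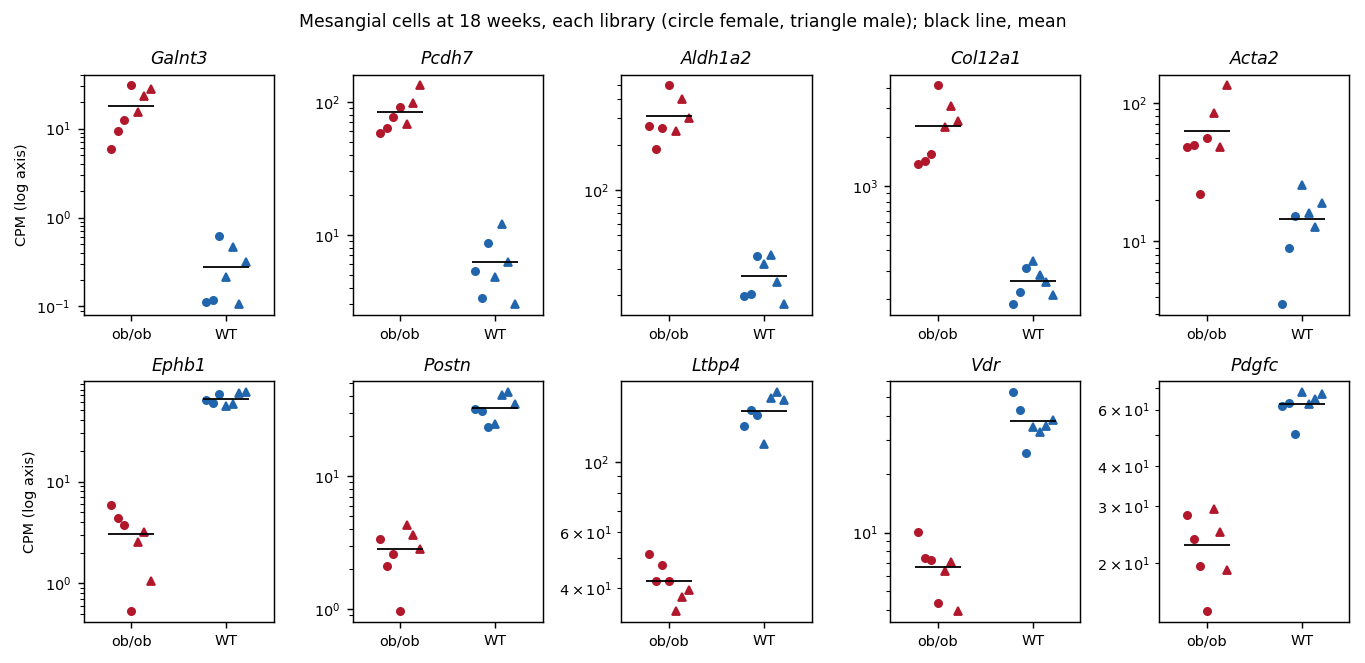
CPM on a log axis of 10 genes in each mesangial library at 18 weeks, ob/ob left and WT right, circles for females, triangles for males and a black line for the mean (n = 7 each). In 9 of the 10 genes the genotypes did not overlap, and Acta2 overlapped through ob/ob female 3 (21.9 CPM) and WT male 1 (25.7 CPM).

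Many genes of the actin cytoskeleton depend on serum response factor (SRF) and its actin-sensing coactivators, the myocardin-related transcription factors (MRTF). Of 26 tested members of this list 15 rose and 1 fell, with a median log2FC of 0.368, against 11.1% higher and 8.25% lower among all genes. On the TPM scale 10 rose and 2 fell. At the younger ages 20 rose at 6 weeks (median log2FC 0.567, against 8.22% of all genes higher) and 21 at 12 weeks (0.528, against 10.5%). Acta2 and Tagln were put in the list because the study chose them from these same libraries. The study also reported activation of MRTF and SRF from its single-cell and bulk data, of which these libraries are part. The other members were chosen with earlier results of these data known. The direction of the listed genes, Acta2 and Tagln included, is therefore not independent evidence. Acta2, the smooth muscle actin, had 21.9 to 133 CPM (median 49.9) in ob/ob, against 3.54 to 25.7 CPM (median 15.3) in WT cells (log2FC 2.19 ± 0.35, adjusted p = 4.75e-06). ob/ob male 4 was highest (133 CPM) and ob/ob female 3 lowest among ob/ob libraries. Lmod1, which nucleates actin filaments in smooth muscle, had 4.79 to 15.6 CPM (median 11.0) in ob/ob, against 1.10 to 3.46 CPM (median 2.02) in WT cells (log2FC 2.35 ± 0.37, adjusted p = 2.66e-06) and did not overlap. Tagln, an actin-binding protein, averaged 13.1 ± 8.26 CPM in ob/ob and 4.42 ± 2.24 CPM in WT cells (log2FC 1.61 ± 0.34, adjusted p = 3.91e-04). The abundant actin-binding genes changed less. Cald1, which encodes caldesmon, averaged 5046 ± 550.4 CPM in ob/ob and 3272 ± 342 CPM in WT cells (log2FC 0.63 ± 0.07). Actn1, the cross-linker alpha-actinin 1, averaged 267 ± 47.8 CPM in ob/ob and 172 ± 17.2 CPM in WT cells (log2FC 0.66 ± 0.12). Fhl1, Pdlim5 and Synpo2, scaffolds of actin bundles, had log2FC values of 0.75 ± 0.10, 0.82 ± 0.24 and 0.87 ± 0.32. Synpo2 was still called in 5 of 14 fits that each left out 1 library, with an adjusted p of up to 0.175. Myl9, the regulatory light chain of smooth muscle myosin, had a log2FC of 0.32 ± 0.10 and was still called in 11 of 14 fits that each left out 1 library, with an adjusted p of up to 0.0736. Cnn2, a calponin, had a log2FC of 0.49 ± 0.17 and was still called in 8 of 14 fits that each left out 1 library, with an adjusted p of up to 0.121. Smtn, which encodes smoothelin, was the exception and fell by 0.42 ± 0.10 on the log2 scale. Srf itself and Vcl, the adhesion protein vinculin, were tested and not called (log2FC -0.20 ± 0.19 and 0.06 ± 0.10). The markers listed for smooth muscle were low, with a sum over 6 markers of 12.4 to 38.9 CPM in ob/ob cells and 25.6 to 48.0 CPM in WT cells, and 2 of the 4 tested, Mustn1 and Ntrk3, fell. Ntrk3 was far more abundant in podocyte libraries, with medians of 338.5 CPM in ob/ob and 315.4 CPM in WT mice. In mesangial cells its medians were 0.554 CPM in ob/ob and 2.98 CPM in WT. Myh11 had medians of 3.60 CPM in ob/ob and 3.59 CPM in WT cells, and Pln had 2.78 and 5.52 CPM.

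To show what these genes carry at their start, RefSeq promoter sequences (GRCm38.p6, 250 bases before to 50 after the start) were searched on both strands for the CArG box, the binding motif of SRF. It was found in 488 of 27025 genes (1.81%) and in 7 of the 25 listed genes matched (28%), among them Cnn2, Fhl1 and Myl9, which rose, and Srf and Vcl, which were not called. A match is a description of the letters and not a proof of binding. The promoters of Myl9 (chr2:156775214-156775513, plus strand, match at -161 from the start) and of the calponin gene Cnn2 (chr10:79988350-79988649, plus strand, match at -56) are shown with the CArG box in capitals. Beside them stand 2 promoters of immediate early genes, described next, that encode phosphatases of MAP kinases. Dusp5 (chr19:53528895-53529194, plus strand) holds 2 adjoining CArG boxes at -82 and -72, in capitals. Dusp1 (chr17:26508423-26508722, minus strand) holds the cyclic AMP response element TGACGTCA at -143, in capitals, a motif found in 549 of 27025 genes (2.03%).
Myl9: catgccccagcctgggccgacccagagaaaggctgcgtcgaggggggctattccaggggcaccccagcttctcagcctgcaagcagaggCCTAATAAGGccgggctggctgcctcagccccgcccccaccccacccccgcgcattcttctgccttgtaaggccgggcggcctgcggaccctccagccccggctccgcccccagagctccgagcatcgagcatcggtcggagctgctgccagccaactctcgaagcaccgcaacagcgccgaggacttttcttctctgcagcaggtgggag
Cnn2: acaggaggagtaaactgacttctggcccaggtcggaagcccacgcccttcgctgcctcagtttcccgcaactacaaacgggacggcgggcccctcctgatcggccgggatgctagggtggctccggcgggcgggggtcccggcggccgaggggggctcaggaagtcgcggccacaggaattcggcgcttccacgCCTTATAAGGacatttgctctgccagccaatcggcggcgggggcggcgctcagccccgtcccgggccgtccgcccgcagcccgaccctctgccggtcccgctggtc
Dusp5: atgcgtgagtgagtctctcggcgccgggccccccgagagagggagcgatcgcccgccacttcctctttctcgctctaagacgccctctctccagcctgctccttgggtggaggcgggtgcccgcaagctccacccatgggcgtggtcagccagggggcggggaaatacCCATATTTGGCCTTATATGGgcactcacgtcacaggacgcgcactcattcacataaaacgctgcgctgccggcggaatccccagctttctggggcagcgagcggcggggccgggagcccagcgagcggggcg
Dusp1: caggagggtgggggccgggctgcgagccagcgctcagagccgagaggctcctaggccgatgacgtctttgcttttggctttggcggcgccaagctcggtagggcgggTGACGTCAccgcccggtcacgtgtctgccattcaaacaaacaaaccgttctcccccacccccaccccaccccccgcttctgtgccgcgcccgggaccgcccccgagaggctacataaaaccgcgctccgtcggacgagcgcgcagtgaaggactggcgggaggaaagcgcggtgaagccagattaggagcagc

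Immediate early genes, which are transcribed within minutes of growth factors, stretch or stress, fell together. Of 27 tested 19 fell (70.4%, against 8.25% among all genes) and the other 8 did not pass the test, with a median log2FC of -0.730. All cells had been digested with enzymes and sorted before RNA was taken. The part of this handling in the levels of these genes, and in their difference between genotypes, was not tested. Without ob/ob male 1, 20 fell. Jun, a subunit of the transcription factor AP-1, had 1497 to 2556 CPM (median 1904) in ob/ob, against 2690.2 to 4015 CPM (median 3824) in WT cells (log2FC -0.91 ± 0.12, adjusted p = 1.39e-07). Its partner Fos had 1435 to 2693 CPM (median 2335) in ob/ob, against 3023 to 4276 CPM (median 3846) in WT cells (log2FC -0.75 ± 0.11, adjusted p = 5.13e-07). Fosb had 365 to 879 CPM (median 594) in ob/ob, against 925 to 1675 CPM (median 1434) in WT cells (log2FC -1.13 ± 0.16, adjusted p = 6.67e-07). For these 3 genes every ob/ob library was below every WT library. Dusp1 had 998 to 1481 CPM (median 1290.0) in ob/ob, against 1477 to 2346 CPM (median 2162) in WT cells (log2FC -0.73 ± 0.10, adjusted p = 1.56e-07), with an overlap that came from WT male 1 (1477 CPM). Atf3 and Btg2, which encode a stress-induced transcription factor and an inhibitor of proliferation, fell by 0.98 ± 0.19 and 0.98 ± 0.15 on the log2 scale. The orphan nuclear receptors Nr4a1, Nr4a2 and Nr4a3 had log2FC values of -0.95 ± 0.20, -1.55 ± 0.41 and -1.09 ± 0.32, and Dusp5 had -0.93 ± 0.20. The CArG box was found in 3 of 23 matched genes, Dusp5 among them, and the cyclic AMP response element in 3 of 23, Btg2 and Dusp1 among them. At the younger ages fewer members were called, 3 lower at 6 weeks (4.66% of all genes were lower at that age), and 2 higher and 4 lower at 12 weeks (10.5% and 12.0% of all genes). These counts do not test a difference between ages. Of the immediate early genes named here, only Btg2 was called in the test of 18 against 6 weeks. Among 12 heat shock genes 2 fell (16.7%, against 8.25% among all genes), but without WT male 1 there were 6 lower and 1 higher. Of the 14 fits that each left out 1 library, 8 changed the count of 2 by more than 1.5 times. Hspa1a, the inducible HSP70, had 134 to 2556 CPM (median 1973) in ob/ob, against 389 to 5538 CPM (median 4412) in WT cells (log2FC -1.15 ± 0.34, adjusted p = 0.0126). The lowest value of either genotype came from its male 1, 134 CPM in ob/ob and 389 CPM in WT. Hspa1b is a near-identical copy with which it shares reads, so the split between them is uncertain. Dnaja1, an HSP70 partner, had a log2FC of -0.50 ± 0.18 (adjusted p = 0.0425) and was still called in 7 of 14 fits that each left out 1 library, with an adjusted p of up to 0.147.

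**Figure D3:**
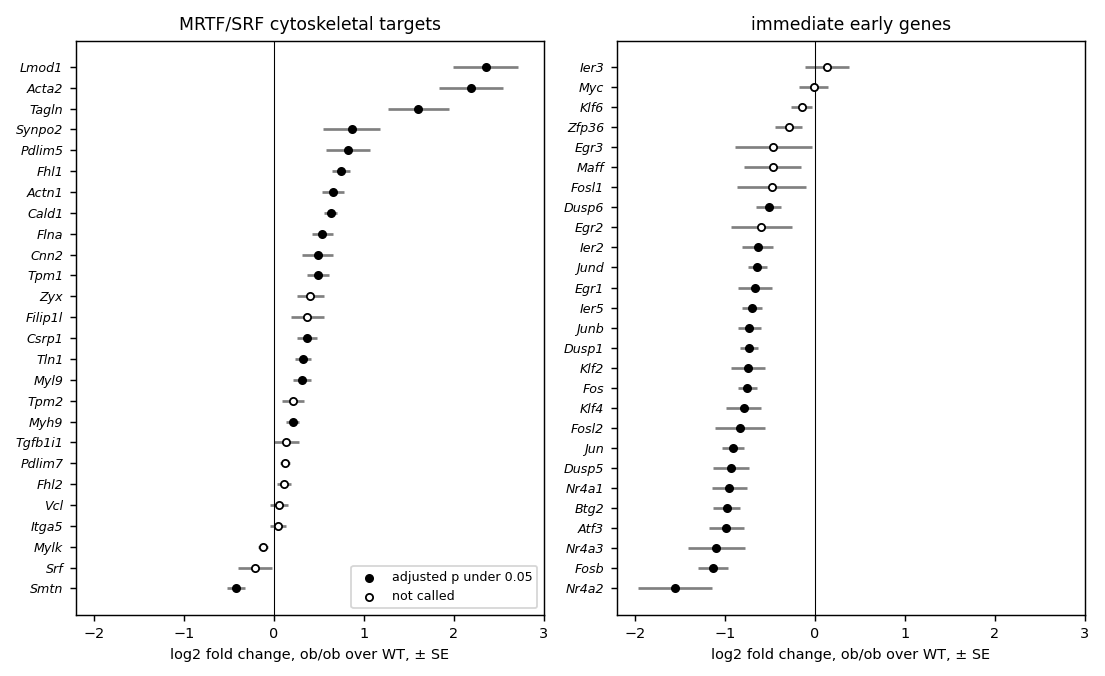
log2FC of ob/ob over WT at 18 weeks with its SE for each tested member of the MRTF/SRF list (left, 26 genes) and of the immediate early genes (right, 27 genes), filled where the adjusted p was under 0.05. The left list runs from Smtn (-0.42 ± 0.10) to Lmod1 (2.35 ± 0.37), and on the right 19 of 27 genes are filled, all below 0.

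Targets of the mechanosensitive coactivators YAP and TAZ went both ways, 6 higher and 7 lower of 21. Ankrd1, a cardiac ankyrin repeat protein, had 20.6 to 53.0 CPM (median 28.6) in ob/ob, against 5.79 to 20.3 CPM (median 11.0) in WT cells (log2FC 1.48 ± 0.27, adjusted p = 4.95e-05). Nuak2, a kinase, and Fjx1 rose by 1.38 ± 0.30 and 1.18 ± 0.35 on the log2 scale. F3, the initiator of coagulation known as tissue factor, and Cyr61, a secreted matricellular protein, fell by 1.19 ± 0.33 and 0.54 ± 0.18 on the log2 scale. Cyr61 was still called in 8 of 14 fits that each left out 1 library, with an adjusted p of up to 0.0799.

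Structural matrix genes moved in both directions, and more rose than fell. Of 14 fibrillar and fibril-associated collagens, 10 rose and 2 fell, with a median log2FC of 0.756. Col12a1, which links collagen fibrils to the surrounding matrix, had 1355 to 4161 CPM (median 2306) in ob/ob, against 187 to 346 CPM (median 254) in WT cells (log2FC 3.18 ± 0.20, adjusted p = 4.71e-16). Col3a1, a fibrillar collagen of repair, had 11.0 to 27.2 CPM (median 14.2) in ob/ob, against 0.843 to 3.57 CPM (median 2.18) in WT cells (log2FC 2.83 ± 0.31, adjusted p = 9.80e-10). Col14a1 and Col5a3 rose by 2.15 ± 0.25 and 2.11 ± 0.33 on the log2 scale. Col8a1 and Col27a1 rose on the log2 scale by 1.00 ± 0.14 and 1.03 ± 0.12. Col1a2, a chain of collagen type I, fell, with 49.1 to 119 CPM (median 90.1) in ob/ob, against 117 to 147 CPM (median 141) in WT cells (log2FC -0.73 ± 0.14, adjusted p = 1.26e-04), and so did Col8a2 (-1.68 ± 0.30). Of 22 basement membrane genes 9 rose and 4 fell, and without ob/ob male 2 only 2 fell. Col4a1 and Col4a2, the collagen IV chains of the mesangial matrix, both rose. Col4a1 averaged 8001 ± 1516 CPM in ob/ob and 4895 ± 1070.0 CPM in WT cells (log2FC 0.70 ± 0.13), and Col4a2 averaged 5592 ± 594 CPM in ob/ob and 3093 ± 550.2 CPM in WT cells (log2FC 0.85 ± 0.10). Col4a3 and Col4a4, the chains that podocytes make for the filtration barrier, did not rise. Col4a3 averaged 25.6 ± 3.46 CPM in ob/ob and 32.7 ± 8.13 CPM in WT cells (adjusted p = 0.126), and Col4a4 fell by 0.65 ± 0.18 on the log2 scale, with WT levels of 0.488% and 0.598% of the podocyte level. Lama1, an embryonic laminin chain of the mesangium, had 4.03 to 11.3 CPM (median 6.43) in ob/ob, against 0.0562 to 1.53 CPM (median 0.729) in WT cells (log2FC 3.03 ± 0.32, adjusted p = 5.76e-10). Lama3 fell, with 0.624 to 3.68 CPM (median 1.45) in ob/ob, against 5.68 to 8.11 CPM (median 6.64) in WT cells (log2FC -2.05 ± 0.45, adjusted p = 6.65e-04). Lamc3, a minor laminin chain, had a log2FC of -1.51 ± 0.54 and was still called in 6 of 14 fits that each left out 1 library, with an adjusted p of up to 0.158. Col18a1, the source of endostatin, had 123 to 336 CPM (median 198) in ob/ob, against 26.7 to 54.4 CPM (median 36.2) in WT cells (log2FC 2.47 ± 0.20, adjusted p = 3.79e-13). Nid2, which binds laminin to collagen IV, rose by 1.10 ± 0.15 on the log2 scale.

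Among 10 matrix proteoglycans 4 rose. Dcn, which encodes decorin, had 16.7 to 25.9 CPM (median 23.9) in ob/ob, against 2.75 to 5.33 CPM (median 3.44) in WT cells (log2FC 2.60 ± 0.24, adjusted p = 1.86e-11). Prelp and the abundant Bgn, which encodes biglycan, rose on the log2 scale by 1.93 ± 0.26 and 0.37 ± 0.07, beside Ogn. Of 22 matricellular and elastic fibre genes, 9 rose and 5 fell. Fn1, which encodes fibronectin, had 8.33 to 41.7 CPM (median 19.3) in ob/ob, against 2.29 to 5.41 CPM (median 3.52) in WT cells (log2FC 2.54 ± 0.26, adjusted p = 1.60e-10). Fbln5, an organiser of elastic fibres, had 25.9 to 62.4 CPM (median 51.3) in ob/ob, against 8.42 to 11.7 CPM (median 10.6) in WT cells (log2FC 2.21 ± 0.19, adjusted p = 2.99e-12). Thbs1, thrombospondin 1, an activator of latent TGF-beta, averaged 1615 ± 342 CPM in ob/ob and 1019 ± 313 CPM in WT cells (log2FC 0.67 ± 0.17). Spp1, osteopontin, had a log2FC of 2.45 ± 0.74, lay under 10 CPM in every library and was not called without ob/ob male 1, with an adjusted p of up to 0.0608. The genes that fell were Eln (-1.60 ± 0.36), which encodes elastin, Mgp (-1.55 ± 0.26), an inhibitor of calcification, Npnt (-1.39 ± 0.21), the ligand nephronectin, Tnxb (-0.98 ± 0.21), tenascin X, and Postn. Npnt in WT mesangial cells stood at 1.59% of its podocyte level.

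Enzymes that modify, cross-link and cut matrix rose in 16 of 29 cases. Loxl2, a lysyl oxidase that cross-links collagen, had 118 to 182 CPM (median 145) in ob/ob, against 58.5 to 69.6 CPM (median 65.1) in WT cells (log2FC 1.22 ± 0.10, adjusted p = 5.39e-13). P4ha3 and Plod2, hydroxylases of proline and lysine in collagen, rose on the log2 scale by 1.72 ± 0.32 and 0.73 ± 0.10. Of the proteases Mmp2 averaged 666 ± 54.1 CPM in ob/ob and 336 ± 44.9 CPM in WT cells (log2FC 1.00 ± 0.08). Mmp3 and Adamts9 rose by 1.52 ± 0.21 and 1.11 ± 0.20 on the log2 scale. Serpine2, an inhibitor of thrombin and plasmin and a mesangial marker, had 3913 to 5548 CPM (median 4381) in ob/ob, against 2213 to 2758 CPM (median 2412) in WT cells (log2FC 0.89 ± 0.07, adjusted p = 9.84e-13). Of 21 integrins and other matrix receptors 8 rose and 4 fell, but on the TPM scale 4 rose and 5 fell. The higher members numbered 5 without WT female 3 or WT male 4, and the lower members 2 without WT female 4. Itga9 and Itgav, alpha chains that bind tenascin, osteopontin and vitronectin, both rose. Itga9 averaged 830.5 ± 107 CPM in ob/ob and 429.9 ± 13.9 CPM in WT cells (log2FC 0.94 ± 0.08), and Itgav averaged 489.6 ± 61.3 CPM in ob/ob and 305 ± 16.1 CPM in WT cells (log2FC 0.69 ± 0.08). Itgb1, the common beta chain, had a log2FC of 0.35 ± 0.07. Itga6 and Itgb8 were low, with log2FC values of 0.96 ± 0.32 and 1.02 ± 0.35. Itga6 was still called in 8 of 14 fits that each left out 1 library, with an adjusted p of up to 0.0701. Itgb8 was still called in 7 of 14 fits that each left out 1 library, with an adjusted p of up to 0.145. Itga4, an alpha chain that binds VCAM-1 and fibronectin, fell and did not overlap, with 567 to 844 CPM (median 736) in ob/ob, against 1048 to 1166 CPM (median 1129.5) in WT cells (log2FC -0.60 ± 0.08, adjusted p = 4.03e-08).

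Of 32 genes of TGF-beta and BMP signalling, 10 rose and 4 fell. Among the ligands Bmp2 had 124 to 210.2 CPM (median 172) in ob/ob, against 42.4 to 98.0 CPM (median 62.8) in WT cells (log2FC 1.37 ± 0.18, adjusted p = 9.59e-08). Tgfb1 and Tgfb3 rose by 0.48 ± 0.07 and 0.65 ± 0.13 on the log2 scale. Bmpr1b, a type I receptor of BMP, had 10.8 to 29.3 CPM (median 17.5) in ob/ob, against 1.82 to 4.39 CPM (median 3.26) in WT cells (log2FC 2.62 ± 0.25, adjusted p = 3.46e-11). Smad7, an inhibitor that the pathway itself induces, rose on the log2 scale by 0.71 ± 0.11. Ltbp4, which binds latent TGF-beta to the matrix, went the other way, with 34.0 to 51.4 CPM (median 42.2) in ob/ob, against 114 to 166 CPM (median 145) in WT cells (log2FC -1.81 ± 0.11, adjusted p = 2.67e-16). No ob/ob library reached a WT library. Of 34 genes of PDGF, FGF, VEGF and IGF signalling, 12 rose and 6 fell. Pdgfrb, the receptor that mesangial cells depend on, fell, with 2243 to 2889.6 CPM (median 2537) in ob/ob, against 3091 to 3666 CPM (median 3249) in WT cells (log2FC -0.44 ± 0.08, adjusted p = 2.69e-05). Pdgfc, a ligand, had 14.2 to 29.5 CPM (median 23.6) in ob/ob, against 50.4 to 68.0 CPM (median 62.8) in WT cells (log2FC -1.45 ± 0.14, adjusted p = 9.30e-11). The lymphatic growth factors Figf (VEGF-D) and Vegfc both rose. Figf averaged 143 ± 29.5 CPM in ob/ob and 55.6 ± 8.93 CPM in WT cells (log2FC 1.38 ± 0.13), and Vegfc averaged 69.7 ± 9.06 CPM in ob/ob and 34.4 ± 10.0 CPM in WT cells (log2FC 1.04 ± 0.17). Vegfa fell by 0.78 ± 0.24 on the log2 scale (it was not called without WT male 1, with an adjusted p of up to 0.0541), at 0.626% of the podocyte level in WT cells. Hbegf, an EGF receptor ligand, fell by 0.80 ± 0.17 on the log2 scale.

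Of 25 angiopoietins, ephrins and Eph receptors, 7 rose and 6 fell. Angpt2, which opposes angiopoietin 1 at the endothelial receptor TIE2, averaged 628 ± 70.3 CPM in ob/ob and 369 ± 50.7 CPM in WT cells (log2FC 0.78 ± 0.08). Angpt1 itself was less abundant and had 1.41 to 4.01 CPM (median 1.94) in ob/ob, against 0 to 0.618 CPM (median 0.266) in WT cells (log2FC 2.84 ± 0.50, adjusted p = 2.32e-05). Epha2 rose on the log2 scale by 1.02 ± 0.19 and the ligand Efna5 by 2.86 ± 0.72, next to the fall of Ephb1. Angptl2, a secreted angiopoietin-like protein, fell, with 153 to 252 CPM (median 206) in ob/ob, against 328 to 534 CPM (median 401) in WT cells (log2FC -0.95 ± 0.23, adjusted p = 0.00170). Of 19 semaphorins, slits and netrins, the guidance cues, 6 rose and 4 fell. Sema3e, a repellent of endothelial sprouts, had 14.9 to 52.5 CPM (median 27.4) in ob/ob, against 4.64 to 12.3 CPM (median 7.37) in WT cells (log2FC 2.02 ± 0.24, adjusted p = 1.21e-08). Ntn4, a netrin of basement membranes, rose by 1.03 ± 0.28 on the log2 scale. Ntn1 fell by 1.17 ± 0.34 on the log2 scale. Sema3g fell by 1.48 ± 0.52 on the log2 scale and was still called in 5 of 14 fits that each left out 1 library, with an adjusted p of up to 0.0843. Its WT mesangial level was 0.297% of the podocyte level, near that of Nphs1.

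Genes that set vascular tone were split, 9 higher and 7 lower of 30. F2r, which encodes the thrombin receptor PAR1, had 1538 to 2696 CPM (median 2022) in ob/ob, against 610.3 to 805 CPM (median 693) in WT cells (log2FC 1.60 ± 0.10, adjusted p = 4.71e-16). Npr1, the receptor of atrial natriuretic peptide, and Npr3, its clearance receptor, both rose. Npr1 averaged 374 ± 22.4 CPM in ob/ob and 229 ± 29.5 CPM in WT cells (log2FC 0.72 ± 0.07), and Npr3 averaged 426 ± 58.4 CPM in ob/ob and 259 ± 33.8 CPM in WT cells (log2FC 0.72 ± 0.10). Ednrb, an endothelin receptor, and Adra1d, an adrenergic receptor, rose on the log2 scale by 1.60 ± 0.52 and 2.58 ± 0.47, both under 20 CPM in all libraries. Ednrb was still called in 11 of 14 fits that each left out 1 library, with an adjusted p of up to 0.0742. Agtr1a, the angiotensin II receptor, had 644 to 760.0 CPM (median 698) in ob/ob, against 609 to 766 CPM (median 710.1) in WT cells (log2FC -0.01 ± 0.06), and the genotypes overlapped throughout. Rgs5, a pericyte brake on G protein signalling, averaged 565 ± 184 CPM in ob/ob and 293 ± 59.5 CPM in WT cells (log2FC 0.96 ± 0.15), whereas Rgs4 fell by 0.94 ± 0.20 on the log2 scale. On the relaxing side Ptger2, a prostaglandin E2 receptor, had 1.18 to 4.47 CPM (median 1.84) in ob/ob, against 8.11 to 11.4 CPM (median 11.0) in WT cells (log2FC -2.22 ± 0.23, adjusted p = 2.56e-10). Gucy1a3 and Gucy1b3, the subunits of the nitric oxide receptor guanylate cyclase, fell by 0.47 ± 0.07 and 0.34 ± 0.06 on the log2 scale.

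Of 16 ion channels of contraction and stretch, 4 rose and 3 fell. The subunits of the ATP-sensitive channel of pericytes both fell, Kcnj8 as given above and Abcc9, its sulfonylurea receptor, with 136 to 299 CPM (median 159) in ob/ob, against 189.6 to 319 CPM (median 252) in WT cells (log2FC -0.43 ± 0.11, adjusted p = 0.00518). Trpc6, a cation channel of the mesangium and of podocytes, fell by 0.39 ± 0.11 on the log2 scale. The stretch-activated channels Piezo1 and Trpv4 rose on the log2 scale by 0.41 ± 0.06 and 0.86 ± 0.12, and neither overlapped between genotypes. Piezo1 averaged 80.5 ± 6.09 CPM in ob/ob and 60.3 ± 4.08 CPM in WT cells. Trpv4 averaged 26.6 ± 5.19 CPM in ob/ob and 14.7 ± 1.17 CPM in WT cells. Kcnmb1, a subunit of a calcium-activated potassium channel, rose on the log2 scale by 0.70 ± 0.19.

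Of 22 nuclear receptors and genes of vitamin D and retinoids, 7 rose and 6 fell, against 3 higher and 6 lower on the TPM scale. Aldh1a2, which makes retinoic acid, had 187 to 494 CPM (median 268) in ob/ob, against 17.5 to 37.0 CPM (median 24.4) in WT cells (log2FC 3.53 ± 0.26, adjusted p = 3.31e-14), so that the lowest ob/ob library was above every WT library. The retinoic acid receptor Rarb and Pparg, the receptor of lipid storage, rose on the log2 scale by 0.94 ± 0.11 and 0.93 ± 0.12. Beside Vdr, Nr3c2, the mineralocorticoid receptor, and Esr1, an oestrogen receptor, fell by 0.73 ± 0.13 and 0.94 ± 0.28 on the log2 scale. Of 12 glucocorticoid targets 3 rose (25.0%, against 11.1% among all genes) and 1 fell (8.33%, against 8.25%). Fkbp5, a regulator of the glucocorticoid receptor, had 78.9 to 119 CPM (median 88.7) in ob/ob, against 37.0 to 70.8 CPM (median 45.9) in WT cells (log2FC 1.03 ± 0.19, adjusted p = 4.28e-05). Errfi1, an inhibitor of the EGF receptor, rose by 1.21 ± 0.25 on the log2 scale.

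Metabolic genes moved in a few members per pathway. Of 31 genes of glucose uptake, glycolysis and the hexosamine pathway, 8 rose (25.8%, against 11.1% among all genes) and 2 fell (6.45%, against 8.25%) in counts. On the TPM scale 2 rose and 3 fell. Pdk1, which closes the entry of pyruvate into mitochondria, and Arrdc4, an arrestin induced by glucose, rose by 0.91 ± 0.23 and 0.89 ± 0.15 on the log2 scale, and Ldha, lactate dehydrogenase, averaged 97.1 ± 14.7 CPM in ob/ob and 71.1 ± 2.69 CPM in WT cells (log2FC 0.47 ± 0.09). Gfpt2 fell as given above. In insulin, leptin and adiponectin signalling, 5 rose and 3 fell of 16, against 3 higher and 3 lower in TPM. Irs1, the insulin receptor substrate, had 87.6 to 148 CPM (median 102) in ob/ob, against 195 to 244 CPM (median 203) in WT cells (log2FC -0.92 ± 0.11, adjusted p = 1.13e-08). Foxo1, the transcription factor that insulin restrains, fell by 0.79 ± 0.09 on the log2 scale. Lepr, the leptin receptor, had 0.0538 to 0.995 CPM (median 0.477) in ob/ob, against 0.155 to 0.586 CPM (median 0.235) in WT cells and was not called (adjusted p = 0.451). None of 25 nuclear and none of 13 mitochondrial genes of oxidative phosphorylation was called by edgeR, DESeq2 or in TPM, with 3 and 0 at an unadjusted p under 0.05 and medians of 0.083 and 0.058 on the log2 scale. Ppargc1a, a coactivator of mitochondrial genes, nevertheless had 3.77 to 11.8 CPM (median 5.40) in ob/ob, against 16.1 to 19.4 CPM (median 18.4) in WT cells (log2FC -1.48 ± 0.19, adjusted p = 6.45e-08). Ucp2, an uncoupling protein, had 21.9 to 40.3 CPM (median 35.3) in ob/ob, against 59.0 to 80.6 CPM (median 76.7) in WT cells (log2FC -1.15 ± 0.12, adjusted p = 2.47e-10). Of 28 genes of fatty acids and lipid storage 6 rose (21.4%, against 11.1% among all genes) and 3 fell (10.7%, against 8.25%). In TPM 3 were higher and 3 lower. Among the 9 called in counts were the lipid droplet coat gene Plin2 (0.74 ± 0.11), the fatty acid carrier Fabp5 (1.60 ± 0.42) and the desaturase Scd1 (-0.88 ± 0.16). Abcg1 and Abca1, exporters of cholesterol, rose on the log2 scale by 1.98 ± 0.17 and 0.74 ± 0.18, with 28.7 to 59.5 CPM (median 51.1) in ob/ob, against 5.74 to 17.2 CPM (median 12.4) in WT cells for Abcg1. They were the only 2 of 22 genes of cholesterol synthesis and transport that rose (9.09%, against 11.1% among all genes), and 3 fell. In TPM 6 fell, and 6 fell without ob/ob female 1.

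Antioxidant genes rose in 16 of 27 cases with 1 lower, a median log2FC of 0.317, and in 13 without ob/ob male 1. Gpx3, the secreted glutathione peroxidase, had 21.1 to 105 CPM (median 32.7) in ob/ob, against 2.91 to 10.0 CPM (median 4.66) in WT cells (log2FC 3.06 ± 0.44, adjusted p = 4.68e-07). It was highest in ob/ob male 1 (105 CPM) and ob/ob female 4 (98.3 CPM), and its lowest ob/ob library was above every WT library. Hmox1, haem oxygenase 1, had 26.4 to 39.4 CPM (median 27.9) in ob/ob, against 13.0 to 24.6 CPM (median 14.3) in WT cells (log2FC 0.90 ± 0.19, adjusted p = 2.90e-04). Me1, malic enzyme, rose by 2.50 ± 0.50 on the log2 scale, with 0.775 to 3.07 CPM (median 1.72) in ob/ob, against 0.112 to 0.531 CPM (median 0.312) in WT cells. Slc7a11, the cystine transporter, fell by 0.99 ± 0.36 on the log2 scale and was still called in 4 of 14 fits that each left out 1 library, with an adjusted p of up to 0.115. In the unfolded protein response, 3 of 21 genes rose at 18 weeks (14.3%, against 11.1% among all genes). At 6 weeks 12 rose (8.22% of all genes were higher at that age), and at 12 weeks 2 (10.5% of all genes). Such counts do not test whether the effect differed between ages.

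Genes of innate immunity rose in part. Of 12 complement genes and regulators 7 rose. C1ra, the protease that starts the classical pathway, had 116 to 162 CPM (median 142) in ob/ob, against 62.3 to 83.1 CPM (median 72.5) in WT cells (log2FC 0.94 ± 0.09, adjusted p = 1.20e-10). C3, the central component, had 0.166 to 7.26 CPM (median 0.779) in ob/ob, against 0 to 0.371 CPM (median 0.0533) in WT cells (log2FC 3.82 ± 0.87, adjusted p = 8.87e-04). It was highest in ob/ob male 1 (7.26 CPM). Cfb, of the alternative pathway, had a log2FC of 1.20 ± 0.29 and was not called without ob/ob male 2, with an adjusted p of up to 0.0614. Of 15 genes of MHC class I presentation 8 rose and 1 fell, against 4 higher and 1 lower in TPM. Without ob/ob male 2 or ob/ob male 4 the higher members numbered 4, and without WT female 2, WT female 3 or WT male 3 they numbered 5. H2-D1 averaged 586 ± 270.1 CPM in ob/ob and 321 ± 62.6 CPM in WT cells (log2FC 0.87 ± 0.24). B2m, the invariant chain, averaged 374 ± 133 CPM in ob/ob and 227 ± 41.1 CPM in WT cells (log2FC 0.72 ± 0.21). H2-Q7 had a log2FC of 1.32 ± 0.28. B2m was not called without ob/ob male 2 or ob/ob male 4, with an adjusted p of up to 0.0539. Members of the H2 family share sequence, and reads may have been split between them. Of 24 interferon-response genes 7 rose, among them Bst2 (0.94 ± 0.14) and Oasl2 (0.87 ± 0.16). The count was 12 without WT male 1, 4 without WT female 2, WT female 3, ob/ob male 2 or ob/ob male 4, and 4 in TPM. Of 19 chemokine, adhesion and NF-kB genes 4 rose (21.1%, against 11.1% among all genes) and 1 fell (5.26%, against 8.25%). Cx3cl1, which encodes the chemokine fractalkine, had 168 to 316 CPM (median 191) in ob/ob, against 99.2 to 126 CPM (median 113) in WT cells (log2FC 0.87 ± 0.11, adjusted p = 2.17e-08). Csf1, the growth factor of macrophages, and Ccl2 rose by 0.66 ± 0.12 and 2.36 ± 0.59 on the log2 scale, Ccl2 while staying under 5 CPM. Vcam1, an adhesion molecule for leukocytes, averaged 191 ± 44.5 CPM in ob/ob and 283 ± 46.0 CPM in WT cells and fell by 0.56 ± 0.19 on the log2 scale. It was still called in 7 of 14 fits that each left out 1 library, with an adjusted p of up to 0.0998. Immune cell markers stayed low, with a sum over 11 genes of 1.56 to 4.87 CPM in ob/ob cells and 1.33 to 4.22 CPM in WT cells.

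Developmental signalling genes moved both ways. Of 24 Wnt genes 8 rose and 5 fell. Sfrp2, a secreted modulator of Wnt, fell, with 1107 to 1997 CPM (median 1544) in ob/ob, against 3633 to 4844 CPM (median 4181) in WT cells (log2FC -1.51 ± 0.13, adjusted p = 1.12e-12). Dkk2, another secreted modulator, rose, with 1183 to 1939 CPM (median 1484) in ob/ob, against 508 to 656 CPM (median 619) in WT cells (log2FC 1.41 ± 0.12, adjusted p = 3.13e-12). The receptor Fzd2, the pathway target Axin2 and the cyclin Ccnd1 rose on the log2 scale by 1.19 ± 0.18, 0.80 ± 0.13 and 0.96 ± 0.14, and the ligand Wnt5a fell by 1.67 ± 0.45. Of 16 Notch genes 3 rose and 4 fell. Notch4 and its ligand Jag1 rose. Notch4 averaged 85.5 ± 17.2 CPM in ob/ob and 37.1 ± 2.93 CPM in WT cells (log2FC 1.21 ± 0.10). Jag1 averaged 113 ± 23.9 CPM in ob/ob and 56.3 ± 8.62 CPM in WT cells (log2FC 1.03 ± 0.14). The ligands Jag2 and Dll4 fell by 1.33 ± 0.19 and 1.01 ± 0.30 on the log2 scale, and the target genes Heyl and Hes1 by 0.86 ± 0.23 and 0.75 ± 0.13. Lfng, which glycosylates Notch, rose on the log2 scale by 1.37 ± 0.32. Of 17 stromal transcription factors 3 rose and 6 fell. Tcf21 had 0.106 to 0.775 CPM (median 0.445) in ob/ob, against 2.65 to 4.72 CPM (median 3.46) in WT cells (log2FC -3.10 ± 0.52, adjusted p = 1.01e-05), with a WT level of 1.15% of the podocyte level. Hoxd10 and Tbx2 had log2FC values of 1.47 ± 0.21 and 0.54 ± 0.08. Tbx3 fell by 0.46 ± 0.09 on the log2 scale. Gata3, the factor that marks mesangial cells, had 699 to 930.1 CPM (median 833) in ob/ob, against 902 to 1186 CPM (median 986) in WT cells (log2FC -0.32 ± 0.10, adjusted p = 0.0156). The mesangial markers Des, which encodes desmin, and Ptn, pleiotrophin, fell by 0.37 ± 0.07 and 0.60 ± 0.08 on the log2 scale, so that 5 of the 9 mesangial markers fell and 2, Serpine2 and Rgs5, rose.

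Of 22 cell cycle genes 2 rose, Cdk1 (1.03 ± 0.24) and Rrm2 (1.28 ± 0.39), both under 15 CPM, which is 9.09%, below the 11.1% among all genes. In TPM 1 rose and 2 fell. Mki67, which marks cycling cells, had 14.9 to 108 CPM (median 56.5) in ob/ob, against 14.1 to 59.7 CPM (median 24.2) in WT cells and did not pass the test (adjusted p = 0.0906). Cdkn2c, an inhibitor of CDK4 and CDK6, had 6.36 to 12.9 CPM (median 6.92) in ob/ob, against 2.53 to 4.77 CPM (median 3.66) in WT cells (log2FC 1.22 ± 0.21, adjusted p = 1.17e-05). None of 18 clock genes was called by edgeR, DESeq2 or in TPM, and 1 had an unadjusted p under 0.05.

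**Figure D4:**
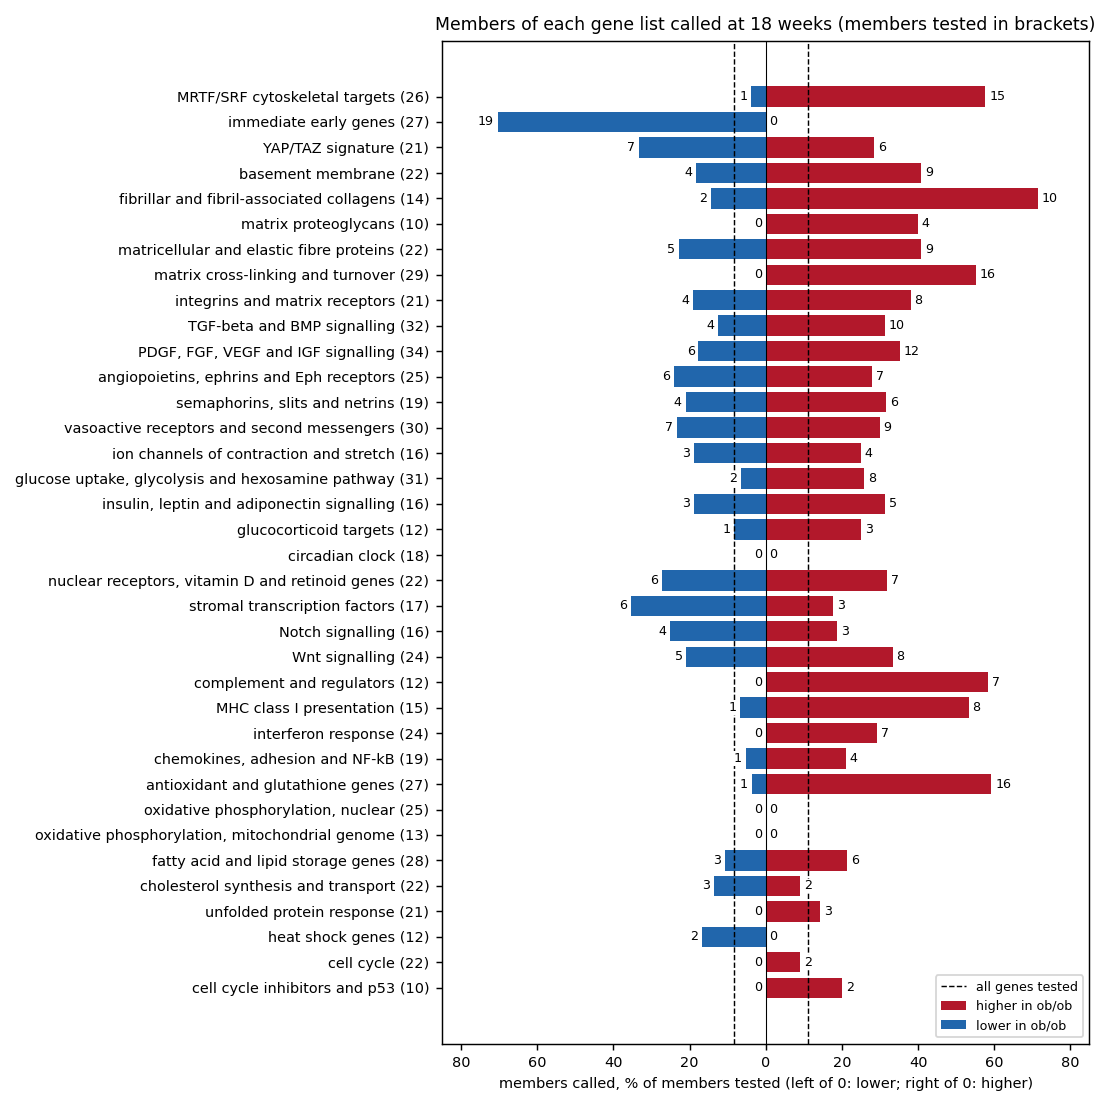
Share of the tested members of each gene list that were called higher (right) or lower (left) in ob/ob than in WT mesangial cells at 18 weeks, with the number of genes at the end of each bar, the number tested in brackets and dashed lines at the share among all genes (11.1% higher, 8.25% lower). Fibrillar and fibril-associated collagens (10 of 14 higher) extend farthest to the right and immediate early genes (19 of 27 lower) farthest to the left.

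The difference between genotypes was then compared with that at the younger ages, for which other mice of both genotypes were used. Depth went with age and cannot be told apart from it, since the libraries held 25.1 to 33.0 M counts in ob/ob and 24.5 to 33.4 M counts in WT cells at 6 weeks, and 18.7 to 37.6 M and 22.3 to 38.1 M at 12 weeks. The effect of ob/ob differed between 18 and 6 weeks in 83 genes (0.462% of those tested), 46 with a more positive and 37 with a more negative effect at 18 weeks. In 63 of the 83 the effect had the same sign and was larger at 18 weeks, in 2 it was smaller, and in 18 the sign differed. At an unadjusted p under 0.05 the count was 1326 (7.39%), and without ob/ob female 4 the 83 genes became 47. At 6, 12 and 18 weeks the log2FC of Aldh1a2 was 1.35 ± 0.23, 2.89 ± 0.24 and 3.53 ± 0.26 (difference 2.18 ± 0.33, adjusted p = 3.27e-04). Galnt3 had 3.09 ± 0.37, 5.02 ± 0.39 and 5.98 ± 0.45 (difference 2.89 ± 0.59, adjusted p = 0.00851), and Pcdh7 and Dpep1 differed on the log2 scale by 1.83 ± 0.36 and 1.85 ± 0.46. Bmpr1b had 0.70 ± 0.21, 1.61 ± 0.22 and 2.62 ± 0.25 (difference 1.92 ± 0.33, adjusted p = 0.00106). In contrast, Serpina3g, a protease inhibitor of a large family of near copies, and Angptl4, an inhibitor of lipoprotein lipase, had negative log2FC values at 6 weeks and positive ones at 18 weeks. For Serpina3g the effects were -1.32 ± 0.36, 0.38 ± 0.35 and 1.20 ± 0.38, and at 18 weeks alone it was not called without ob/ob female 4 or ob/ob male 2, with an adjusted p of up to 0.210. For Angptl4 they were -1.01 ± 0.29, 0.67 ± 0.29 and 0.77 ± 0.31, and at 18 weeks alone it was not called (adjusted p = 0.0743). Among the genes with a more negative effect at 18 weeks, Postn had -1.76 ± 0.17, -3.51 ± 0.19 and -3.52 ± 0.21 (difference -1.76 ± 0.26, adjusted p = 2.47e-04). Ephb1 had -2.68 ± 0.24, -4.24 ± 0.27 and -4.40 ± 0.30 (difference -1.72 ± 0.37, adjusted p = 0.0143). Ltbp4 and Ptger2 differed on the log2 scale by -1.12 ± 0.15 and -1.19 ± 0.30, and Btg2, the immediate early gene, had -0.04 ± 0.14, -0.26 ± 0.14 and -0.98 ± 0.15 (difference -0.94 ± 0.21, adjusted p = 0.0182). Cdkn1c, a cell cycle inhibitor abundant in podocytes, Mustn1, a gene of muscle, and Apcdd1, an inhibitor of Wnt, had positive log2FC values at 6 weeks (1.08, 0.33 and 0.30) and negative ones at 18 weeks (-0.40 ± 0.18, -0.91 ± 0.15 and -0.82 ± 0.17). At 6 weeks alone Mustn1 was not called. At 18 weeks alone Cdkn1c was not called and overlapped, with 7.90 to 19.6 CPM in ob/ob, against 14.3 to 21.6 CPM in WT cells.

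**Figure D5:**
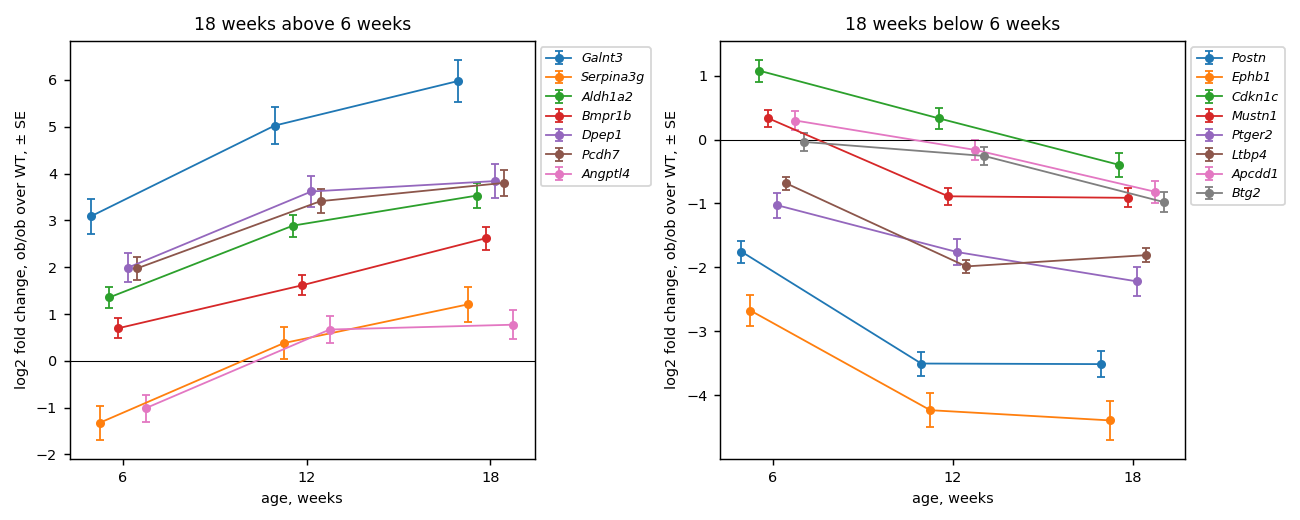
log2FC of ob/ob over WT with its SE at 6, 12 and 18 weeks for 7 of the 8 genes with the most positive (left) and the 8 with the most negative (right) difference between 18 and 6 weeks among those with a mean of at least 5 CPM in 1 of the 4 groups. The lines of Serpina3g and Angptl4 cross 0 upwards, those of Cdkn1c, Mustn1 and Apcdd1 cross it downwards, and Postn (-3.51 and -3.52) and Ephb1 (-4.24 and -4.40) were close at 12 and 18 weeks.

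Between 18 and 12 weeks no gene (0%) passed edgeR's test of a difference in effect, while 1476 genes (8.22%) had an unadjusted p under 0.05, and DESeq2 called 22 and TPM 7. Without ob/ob male 2 edgeR called 2. Females and males were compared within 18 weeks. With 4 ob/ob and 3 WT females 1667 genes were called (9.29%), and with 3 ob/ob and 4 WT males 1910 (10.6%). No gene (0%) passed edgeR's test of a difference between the sexes, and DESeq2 called 12 and TPM none. Of the 17953 genes tested, 557 had an unadjusted p under 0.05 in edgeR's test. That share is under 0.05, and so below what chance alone would give. Galnt3 had log2FC values of 5.62 ± 0.69 in females and 6.31 ± 0.63 in males. Ephb1 had -4.16 ± 0.40 in females and -4.84 ± 0.46 in males, and Acta2 had 2.22 ± 0.52 in females and 2.26 ± 0.47 in males. Jun had -0.96 ± 0.16 in females and -0.85 ± 0.16 in males. With this number of libraries a missed test does not show that the sexes responded alike.

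Leaving out ob/ob female 4, the library farthest from WT, gave 2964 called genes (9.60% higher and 6.91% lower of those tested), of which 2891 were also called with all libraries and in the same direction, and 601 changed at least 2-fold. MRTF/SRF targets then counted 12 higher and 1 lower, antioxidant genes 12 higher, collagens 9 higher and 2 lower, and immediate early genes 18 lower. Without ob/ob male 1 these counts were 14 and 1, 13, 9 and 2, and 20. Without WT male 1, a library with low Hspa1a and the highest Kdr of all 14, 3151 genes were called.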

How the data were processed

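RNA of sorted mesangial cells was sequenced as single reads from SMART-Seq Stranded libraries on a NovaSeq instrument. The authors used FastQC 0.11.5 for quality control, Bowtie2 2.3.3.1 as the aligner, RSEM 1.3.0 for quantification and mm10 as the genome, per the submitters' processing notes. The annotation release is not given in the sources used here. The deposited tables hold RSEM expected counts, which are estimated and not normalized, and TPM, which the authors' RSEM run scaled for length and total. Of 46517 gene entries, 46005 matched GENCODE M21 (GRCm38), which gave positions.

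Expected counts were rounded to whole numbers. Genes were filtered with filterByExpr (17953 kept) and scaled by TMM in edgeR 4.0.16 (R 4.3.3). A model of the 6 groups of genotype and age with a term for sex was fitted to all 46 mesangial libraries, and 18-week ob/ob was set against 18-week WT with the quasi-likelihood test, two-sided, with Benjamini-Hochberg adjustment over all genes. Differences of effect between ages came from the same model, and between sexes from a model with 12 groups. Alternatives were other size factors, no filter, DESeq2 1.42.0, the 18-week libraries alone, no sex term, a replicate block, TPM with limma 3.58.1 on log2(TPM + 0.5), marker covariates and leaving out each library. The fit of the 18-week comparison was tested on simulated counts of 17953 genes, where it called 48 of 50 genes with a log2 change of 1, 49 of 50 with -1, 50 of 50 with 2, 49 of 50 with -2 and 7 of 17753 with no change. The changed genes were drawn only from those with a mean above 5 CPM, and the spread was estimated from these libraries. The simulation therefore does not describe genes of lower level or smaller changes. Total counts per library and the spread between 7 libraries set the precision. The labels do not name the animals, so p values measure the spread between these libraries, and each library is taken to be a sample of its own.

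Levels per podocyte or endothelial library, and levels given as a percent of the podocyte level, are CPM without TMM. The genes named are the 12 that rose most and the 12 that fell most (called, at least 5 CPM in 1 genotype, every ob/ob library on the same side of the WT median), called members of the gene lists, the 8 with the most positive and the 8 with the most negative difference between 18 and 6 weeks (called, at least 5 CPM in 1 of the 4 groups), and markers. The members and lists were chosen with earlier results of these data known. Promoters are RefSeq sequences of GRCm38.p6. A few genes that these rules name are not reported here. Podocyte, endothelial and perfusion libraries were not compared between genotypes here.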

Additional observations from a re-analysis of the deposited data

Results flagged for a closer look

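In 41 of 418 sets of 7 libraries (1 gene in 1 genotype), the highest or lowest library stood apart from the others by more than the 95% limit of Dixon's test for 7 samples. Chance alone gives about 1 in 20. ob/ob male 1 had the highest level of Abcc9 (299 CPM), Slc5a12 (3.34 CPM) and Ren1 (131 CPM), and the lowest level of Hspa1b (28.2 CPM) and Hspa1a (134 CPM) among the 7 ob/ob libraries. ob/ob male 4 had the highest level of Csf1 (91.1 CPM), Npr3 (543 CPM), Fhl1 (212 CPM), Jag1 (163 CPM), Pdlim5 (98.6 CPM) and Thbs1 (2321 CPM) among the 7 ob/ob libraries. ob/ob male 2 had the highest level of Igfbp3 (18.8 CPM), Lama1 (11.3 CPM) and Cfb (57.6 CPM), and the lowest level of Rrm2 (0.937 CPM) and Arrdc4 (5.57 CPM) among the 7 ob/ob libraries. ob/ob female 2 had the lowest level of Hes1 (44.9 CPM) among the 7 ob/ob libraries. ob/ob female 3 had the highest level of Nr4a2 (23.0 CPM) among the 7 ob/ob libraries. ob/ob female 4 had the highest level of Cx3cl1 (316 CPM) among the 7 ob/ob libraries. WT male 1 had the highest level of Dpep1 (1.49 CPM), Ntn4 (22.0 CPM), Rgs5 (416 CPM), Oasl2 (44.4 CPM), Mgp (27.3 CPM), Tagln (9.07 CPM) and Kdr (84.5 CPM), and the lowest level of Dusp1 (1477 CPM), Nt5e (647 CPM), Jun (2690.2 CPM), Hspa1b (76.6 CPM) and Hspa1a (389 CPM) among the 7 WT libraries. WT female 4 had the highest level of Fkbp5 (70.8 CPM), Fabp5 (1.34 CPM), Dnaja1 (557 CPM), Lfng (19.0 CPM) and Slc5a12 (0.310 CPM), and the lowest level of Pdgfc (50.4 CPM) and Gucy1a3 (872 CPM) among the 7 WT libraries. WT male 2 had the highest level of Hmox1 (24.6 CPM), and the lowest level of Clmn (7.11 CPM) among the 7 WT libraries. WT male 3 had the lowest level of Fosb (925 CPM) among the 7 WT libraries. ob/ob male 1 thus combined high tubule markers and a high Ren1 with the lowest heat shock genes, and WT male 1 combined a high Kdr with the lowest heat shock genes of its genotype. The part of cell composition or handling in these libraries was not tested.

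For 25 of the 209 named genes the effect of ob/ob differed between 18 and 6 weeks in edgeR's test of the difference itself. Among all genes tested it differed in 83 of 17953 (0.462%). Some genes were named because this same test called them, so the 25 do not measure how often named genes differed. The log2 difference (18 minus 6 weeks) was positive for Galnt3 (2.89), Serpina3g (2.52), Aldh1a2 (2.18), Bmpr1b (1.92), Dpep1 (1.85), Pcdh7 (1.83), Angptl4 (1.78), Col12a1 (1.29), Fbln5 (1.08), Dkk2 (0.73), Pparg (0.72), Emcn (0.58) and Plin2 (0.57). It was negative for Eln (-2.27), Postn (-1.76), Ephb1 (-1.72), Cdkn1c (-1.47), Mustn1 (-1.24), Ptger2 (-1.19), Ltbp4 (-1.12), Apcdd1 (-1.11), Btg2 (-0.94), Ucp2 (-0.86), Hes1 (-0.77) and Sfrp2 (-0.70). Depth went with age and cannot be told apart from it.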

How the results depend on the processing

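The 18-week comparison was recomputed under 22 settings. The count of 3471 called genes stayed within 1.5 times under every one. With 1 library left out it ranged from 2964 (without ob/ob female 4) to 3763 (without ob/ob female 3), the higher calls from 1715 to 2123, the lower calls from 1241 to 1640 and the changes of at least 2-fold from 601 to 945. Deposited TPM gave 1114 higher calls. With tubule and immune marker levels as covariates there were 2302 lower calls and 1209 changes of at least 2-fold. The 83 genes whose effect differed between 18 and 6 weeks became 159 with DESeq2, 49 with the replicate block, 172 with the covariates and 47 to 94 with 1 library left out. Between 18 and 12 weeks the 0 genes became 22 with DESeq2, 7 in TPM, 12 with the covariates and 0 to 2 with 1 library left out, and between the sexes 12 with DESeq2, 2 with the replicate block and 0 to 0 with 1 library left out. The cause of these moves was not tested. Replicate numbers are shared between genotypes, but deviations of same-numbered libraries correlated at -0.032 to 0.204, over 0.1 in 2 of 6 pairs (female 4 and male 1), and not every library correlated best with its own number. The labels do not tie a number to an animal, so the samples were not treated as paired. The block was fitted to the 18-week libraries alone and gave 3983 calls, against 4043 for those libraries without it. In this block ob/ob female 1 and WT male 3 had no library of the same number in the other genotype. Of the 198 named genes that were called, 172 stayed called under all 22 settings, 146 of 4356 gene and setting combinations lost the call and 0 reversed. Among genes that were not called, Agtr1a changed sign with the covariates (0.0318) and ranged from -0.0369 to 0.0235 with 1 library left out, and Vcl changed sign in TPM (-0.0255). Depth of 15.8 to 22.0 M counts limits genes near 1 CPM, such as C3 and Spp1, to few counts per library.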
